A study of Mus musculus with 6 samples.

Results

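Ribosome biogenesis genes encode the proteins that transcribe, cut, modify and fold ribosomal RNA in the nucleolus and assemble it with ribosomal proteins. RNA polymerase I makes a long precursor, small nucleolar ribonucleoproteins (snoRNPs) guide its modification and early cuts, and separate sets of assembly factors then build the small and the large subunit. In many cell types these genes are expressed together, and the transcription factor MYC is a known activator of many of them. The set described here holds 45 nucleolar, rRNA processing and RNA polymerase I genes, chosen by symbol and function and not by a threshold on these counts. The choice was made with earlier results of these data known, so the set is no independent evidence of direction. All 45 were among the 24147 gene lines measured, each on 1 line.

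The tissue was the lens capsule with its attached lens epithelial cells, from wild type C57BL/6 mice aged 2 months whose fiber cells had been removed through a cut in the cornea, a mouse model of cataract surgery. It was collected 24 h after the operation (24 h, 3 libraries) or directly after it (0 h, 3 libraries). Both groups were operated on, so the 0 h libraries are not from untouched lenses. The study calls the libraries biological triplicates, and the sources used here do not give the number of eyes in each. The libraries held 8069314 to 9249248 gene counts at 24 h and 8734906 to 10862573 at 0 h. The lens epithelium markers Pax6, Cdh1, Foxe3 and Cryaa were read in both groups. Levels are given as TMM-scaled CPM, each library's reads for a gene relative to its scaled total, and Pax6 averaged 324 ± 67.5 CPM at 24 h, against 455 ± 53.7 CPM at 0 h (SD, n = 3 each). Of 10 lens epithelium markers 0 rose and 4 fell (Foxe3, Cryab, Six3 and Prox1), and of 9 fiber markers tested 8 fell.

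Ribosome biogenesis genes were higher 24 h after surgery as a broad group. Of the 45 members, all of which passed the low-count filter, 36 rose and 0 fell at an adjusted p under 0.05 in edgeR's quasi-likelihood test. At an unadjusted p under 0.05 the counts were 39 and 0, beside 2882 higher and 2689 lower of all 13956 genes tested. Both DESeq2 and limma-voom also called 0 members lower. At an adjusted p under 0.05, 15.2% of all genes tested rose and 13.0% fell. Among the 10828 genes whose mean level lay within the range of the members, 16.4% rose by that rule. A positive fold change was measured for 43 members and for 48.3% of all genes. Members had a median log2 fold change of 0.86, a 1.81-fold difference, beside a median of -0.03 over all genes tested. The changes were modest in size: the quartiles of the members were 0.61 and 1.19 on the log2 scale, and 18 of them rose at least 2-fold, as did 9.09% of all genes. A test against a 1.5-fold change called 18 members higher, against 7.60% of all genes. In 40 of the 45 members every 24 h library lay above every 0 h library, which held for 22.9% of all genes. The count of members called higher was 36 in the full fit and 26 to 34 when single libraries were left out. In all of those 6 fits 24 members stayed called. Over all genes tested, the count called higher was 2125 in the full fit and 1551 to 1897 when single libraries were left out.

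**Figure D1:**
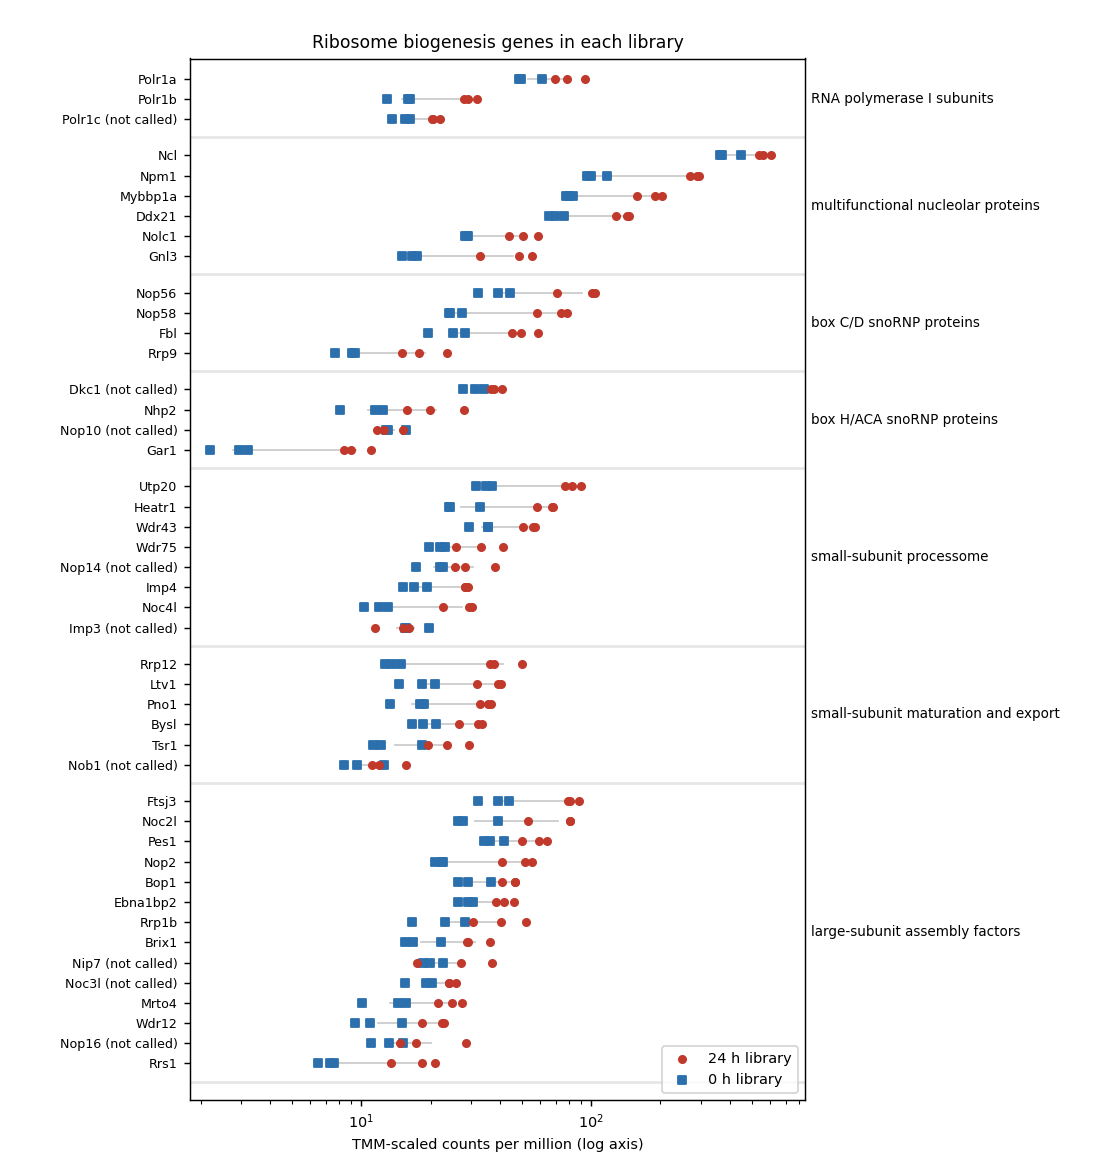
Each row is a ribosome biogenesis gene, grouped by role, and each point is a library (red circles 24 h, blue squares 0 h) on a log axis of TMM-scaled CPM, with a grey line between the group means. In 40 of 45 rows the red points all lie right of the blue ones, and Nop10 and Imp3 are rows in which they mix.

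Together the 45 genes held 0.285%, 0.317% and 0.258% of all gene counts in the 24 h libraries, and 0.144%, 0.156% and 0.143% in the 0 h libraries. The lowest 24 h library was above the highest 0 h library, and the ratio of the means was 1.94. These are bulk samples, so more cells of a type and more RNA per cell cannot be told apart. Per kilobase of the deposited gene length, the highest levels were those of Npm1, at 165 CPM per kilobase at 24 h and 60.4 at 0 h, and of Ncl, at 68.6 at 24 h and 47.6 at 0 h. The lowest levels on that scale at 24 h were those of Noc3l (6.20 at 24 h, 4.6 at 0 h) and Wdr12 (6.29 at 24 h, 3.49 at 0 h).

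The balance between Myc and Mycn changed between the times. Myc (chromosome 15, 61985341 to 61990361, mm10) had 44.4, 52.4 and 33.9 CPM in the 24 h libraries and 3.81, 7.41 and 4.51 CPM in the 0 h libraries. The groups were far apart, with a log2 fold change of 3.05 ± 0.29 (SE) and an adjusted p of 0.000215, an 8.26-fold rise. Mycn, the relative best known from embryonic and neural tissue (chromosome 12, 12936093 to 12941836), had 9.34, 10.6 and 12.2 CPM at 24 h and 28.0, 25.8 and 32.2 CPM at 0 h, a 2.67-fold fall (adjusted p = 0.00104). Within each library, the log2 ratio of Myc to Mycn counts was 2.25, 2.30 and 1.48 at 24 h and -2.88, -1.80 and -2.83 at 0 h (exact two-sided permutation test, p = 0.1, the smallest that 3 against 3 libraries can give). This pair was chosen after its values were seen. Myc exceeded Mycn in each 24 h library and lay below it in each 0 h library. Their sum averaged 54.3 ± 8.45 CPM at 24 h, against 33.9 ± 2.56 CPM at 0 h (SD, n = 3 each). Mycl, also of this family, was low, averaging 0.573 ± 0.417 CPM at 24 h, against 1.45 ± 0.315 CPM at 0 h. Every 24 h library of Mycl lay below every 0 h library, and it was not called (0.409-fold, adjusted p = 0.203).

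Of the 10 MYC network genes tested, 1 rose and 3 fell. Besides Mycn, these were Mxi1 and Mxd4, which encode partners of MAX that repress MYC target genes. Mxi1 averaged 36.8 ± 4.79 CPM at 24 h, against 83.2 ± 4.27 CPM at 0 h (adjusted p = 0.000589), and Mxd4 averaged 8.80 ± 3.21 CPM at 24 h, against 23.1 ± 3.60 CPM at 0 h (adjusted p = 0.00858). Other such repressors on the list were not called: Mxd1 was 1.33-fold (adjusted p = 0.0719), Mnt 1.06-fold (0.692) and Mga 0.733-fold (0.0514). Every 24 h library of Mxd1 lay above every 0 h library, and every one of Mga lay below. Mxd3 was too low to be tested. Max, the shared partner of the family, averaged 58.5 ± 5.28 CPM at 24 h, against 59.3 ± 2.51 CPM at 0 h, a difference short of the threshold (adjusted p = 0.929).

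**Figure D2:**
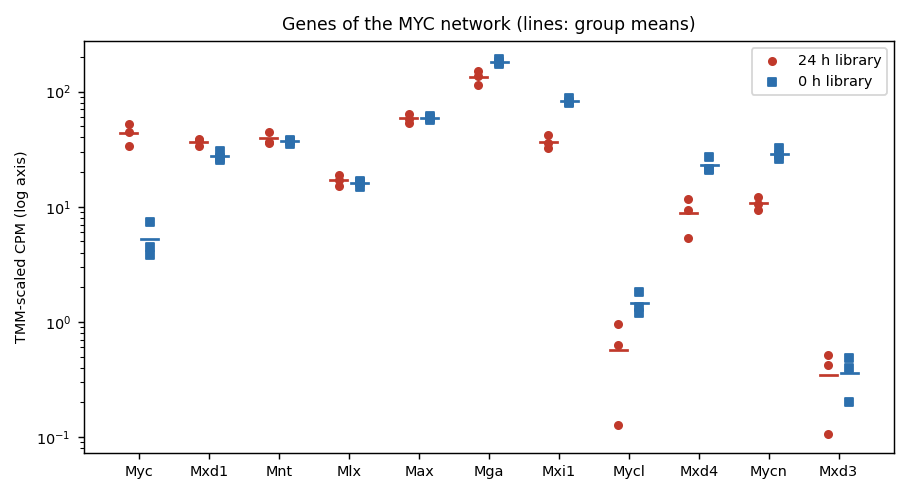
Points are libraries and short lines are group means of TMM-scaled CPM on a log axis, with 24 h (red circles) left of 0 h (blue squares) for each gene of the MYC network. Myc is about 44 CPM at 24 h and 5 CPM at 0 h, while Mycn, Mxi1 and Mxd4 are lower at 24 h.

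MYC and MAX bind the DNA word CACGTG, the canonical E-box, so the members' promoters were searched for it. RefSeq windows on GRCm38.p6, from 250 bases before to 50 bases after the gene's start, were matched by symbol for 40 of the 45 members (44 windows). Npm1, Fbl, Rrp12, Bop1 and Rrs1 were not among them. The word reads the same on both strands. It stood in the window of 9 of the 40 genes (22.5%), against 11.5% of the tested genes with a window, 16.3% of the other ribosome biogenesis genes and 8.09% of all genes with a window. Of all genes with a window, the word stood in 12.9% of those called higher and 9.21% of those called lower. No difference between these shares was tested. In 7 of the 9 the word began after the start used for the window, within the first 50 bases. For Mybbp1a that start differed from the deposited one: its stretch printed below lies before the deposited gene start (72441378). The stretches around it are shown so that position and neighbouring bases can be compared, with the E-box in capitals, each read 5′ to 3′ on the gene's own strand:
Utp20, chr10:88826768-88826793, minus strand: ccagcggcactaactaCACGTGagga
Pno1, chr11:17211543-17211568, minus strand: gcgctgtacaaccacgCACGTGttcc
Ltv1, chr10:13193100-13193125, minus strand: cctagccctgtggaccCACGTGtgga
Mybbp1a, chr11:72441351-72441376, plus strand: gactgtcttctgagccCACGTGtttg
Tsr1, chr11:74898088-74898113, plus strand: gagttcacttggtgcaCACGTGgact
Wdr43, chr17:71616216-71616241, plus strand: cctgcgcccgggcgaaCACGTGgctg
Pes1, chr11:3963961-3963986, plus strand: agggccctaggcagggCACGTGcggg
Nop2, chr6:125131807-125131832, plus strand: gggcgtgtccctggatCACGTGtgtt
Imp4, chr1:34439692-34439717, plus strand: caggacggtcttagacCACGTGacat
In Nop2 and Imp4 the word began before the gene's start, by 60 and 121 bases. The others held it downstream of the start used for the window.

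The whole windows of 2 members with the word and 1 without it are shown in full for comparison. Utp20 (47.0% G and C), Nop2 (66.0%) and Nop58 (45.3%) were chosen for printing after their values were seen, and all 3 rose more than 2-fold. The E-box is in capitals:
Utp20, chr10:88826765-88827064, minus strand: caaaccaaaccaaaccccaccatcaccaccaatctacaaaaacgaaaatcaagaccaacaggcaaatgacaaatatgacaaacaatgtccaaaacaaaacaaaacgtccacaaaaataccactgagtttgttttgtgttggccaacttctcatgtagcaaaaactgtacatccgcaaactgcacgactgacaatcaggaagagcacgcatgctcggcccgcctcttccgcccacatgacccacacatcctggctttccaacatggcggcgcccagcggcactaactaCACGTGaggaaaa
Nop2, chr6:125131633-125131932, plus strand: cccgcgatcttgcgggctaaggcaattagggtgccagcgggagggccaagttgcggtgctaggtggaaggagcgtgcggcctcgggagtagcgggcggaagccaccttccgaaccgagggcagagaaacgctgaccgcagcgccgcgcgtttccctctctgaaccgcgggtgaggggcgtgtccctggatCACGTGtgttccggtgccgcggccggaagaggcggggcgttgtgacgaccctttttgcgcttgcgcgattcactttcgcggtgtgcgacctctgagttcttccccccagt
Nop58, chr1:59684756-59685055, plus strand: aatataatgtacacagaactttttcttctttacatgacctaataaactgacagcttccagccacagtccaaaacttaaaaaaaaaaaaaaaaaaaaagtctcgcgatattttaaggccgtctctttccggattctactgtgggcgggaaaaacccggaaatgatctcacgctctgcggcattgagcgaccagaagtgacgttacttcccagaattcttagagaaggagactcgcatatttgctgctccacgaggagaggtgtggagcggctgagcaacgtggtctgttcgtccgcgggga
The match is a description of these letters, and binding was not measured.

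Of the 3 RNA polymerase I subunits, 2 rose. Polr1b, which encodes the second largest subunit (chromosome 2, 129100996 to 129126595), had 31.7, 28.0 and 29.0 CPM at 24 h and 16.2, 16 and 12.9 CPM at 0 h. The groups did not overlap, and the gene rose 1.96-fold (adjusted p = 0.00379). Polr1a, the largest subunit, had 94.4, 78.6 and 69.9 CPM at 24 h and 60.9, 48.6 and 49.3 CPM at 0 h, a 1.53-fold rise (adjusted p = 0.0217). The call was lost on leaving out the first 24 h library (adjusted p = 0.0589), or the second or the third 0 h library (0.0763 and 0.0661). Polr1c, a subunit shared with RNA polymerase III, had 20.6, 20.4 and 21.9 CPM at 24 h and 15.5, 13.6 and 16.4 CPM at 0 h. Its groups did not overlap, but it was not called (1.38-fold, 95% interval 1.05 to 1.81, adjusted p = 0.0749), except when scaled by library totals only (adjusted p = 0.0494).

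All 6 multifunctional nucleolar proteins rose. Npm1 encodes nucleophosmin, an abundant nucleolar protein that acts in ribosome assembly and export (chromosome 11, 33152498 to 33163206). It had 289, 294 and 269 CPM at 24 h and 117, 95.5 and 99.3 CPM at 0 h, a log2 fold change of 1.45 ± 0.14 (SE), or 2.74-fold (adjusted p = 0.000248). The 3 libraries of each time were close to each other and far from the other time. Processed copies of Npm1 are known in the mouse genome, and the sources used here do not say how reads shared with them were counted. Mybbp1a, a nucleolar MYB-binding protein whose promoter stretch is printed above, had 204, 189 and 158 CPM at 24 h and 78.0, 83.6 and 80.2 CPM at 0 h, a 2.28-fold rise (adjusted p = 0.000617). Ncl, which encodes nucleolin (chromosome 1, 86344719 to 86359455), had 608, 557 and 535 CPM at 24 h and 447, 361 and 372 CPM at 0 h. Its groups did not overlap, but its rise was the smallest of these 6, at 1.44-fold (adjusted p = 0.037), and the call held in 1 of the 6 fits that left out a library, the one without the first 0 h library. In the other fits its adjusted p was 0.059 to 0.113. Gnl3, which encodes the nucleolar GTPase nucleostemin, rose 2.77-fold, the RNA helicase gene Ddx21 1.97-fold, and Nolc1, whose product chaperones snoRNPs, 1.77-fold.

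The 4 box C/D snoRNP genes, of a particle class that guides the methylation of rRNA riboses and early cuts, all rose, and each rose at least 2-fold. Nop58, a core protein of these particles (chromosome 1, 59685006 to 59711510), had 74.0, 78.3 and 58.0 CPM at 24 h and 24.3, 23.9 and 27.3 CPM at 0 h, a log2 fold change of 1.48 ± 0.16 (SE, adjusted p = 0.000369). Its core partner Nop56 had 100.4, 104 and 70.6 CPM at 24 h and 32.1, 44.5 and 39.4 CPM at 0 h, a 2.37-fold rise (adjusted p = 0.00201). In both genes the third 24 h library was the lowest of its group and still stood above all 0 h libraries. Fbl, the methyltransferase fibrillarin (chromosome 7, 28169748 to 28179269), had 58.7, 45.2 and 49.4 CPM at 24 h and 25.1, 19.4 and 28.2 CPM at 0 h, a 2.11-fold rise (adjusted p = 0.00311). Rrp9, a protein of the U3 snoRNP, rose 2.15-fold (adjusted p = 0.00895).

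The box H/ACA snoRNP, which converts uridines of rRNA to pseudouridine, was uneven: of its 4 proteins 2 rose. Gar1 (chromosome 3, 129824912 to 129831396) had the largest fold change of all 45 members. It had 8.44, 11 and 8.99 CPM at 24 h and 2.20, 3.21 and 2.93 CPM at 0 h, a log2 fold change of 1.77 ± 0.31 (SE), or 3.41-fold with a 95% interval of 2.1 to 5.53 (adjusted p = 0.00361). Nhp2 had 15.7, 19.9 and 27.9 CPM at 24 h and 11.5, 8.12 and 12.4 CPM at 0 h, a 1.98-fold rise (adjusted p = 0.0262) whose call was lost on leaving out the third 24 h library (adjusted p = 0.0767), or the first or the second 0 h library (0.0552 and 0.0871). The groups of both genes stood apart, and Nhp2 was highest in the third 24 h library.

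The catalytic subunit and the smallest member of that particle were not called. Dkc1, the pseudouridine synthase dyskerin, had 37.7, 41.0 and 36.8 CPM at 24 h and 27.7, 34.1 and 31.1 CPM at 0 h, 1.24-fold with an interval of 0.992 to 1.56 (adjusted p = 0.139). Nop10 had 12.5, 11.7 and 15.2 CPM at 24 h and 15.6, 12.8 and 13.1 CPM at 0 h, 0.950-fold with an interval of 0.684 to 1.32 (adjusted p = 0.828). Dkc1's groups stood just apart and those of Nop10 overlapped. The log2 ratio of Gar1 to Nop10 counts within a library was -0.57, -0.08 and -0.76 at 24 h and -2.83, -2.0 and -2.16 at 0 h. That of Gar1 to Dkc1 was -2.16, -1.89 and -2.03 at 24 h and -3.65, -3.41 and -3.41 at 0 h. Each ratio differed without overlap (exact permutation test, p = 0.1 for each, the smallest possible here), and the pairs were chosen after their values were seen.

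**Figure D3:**
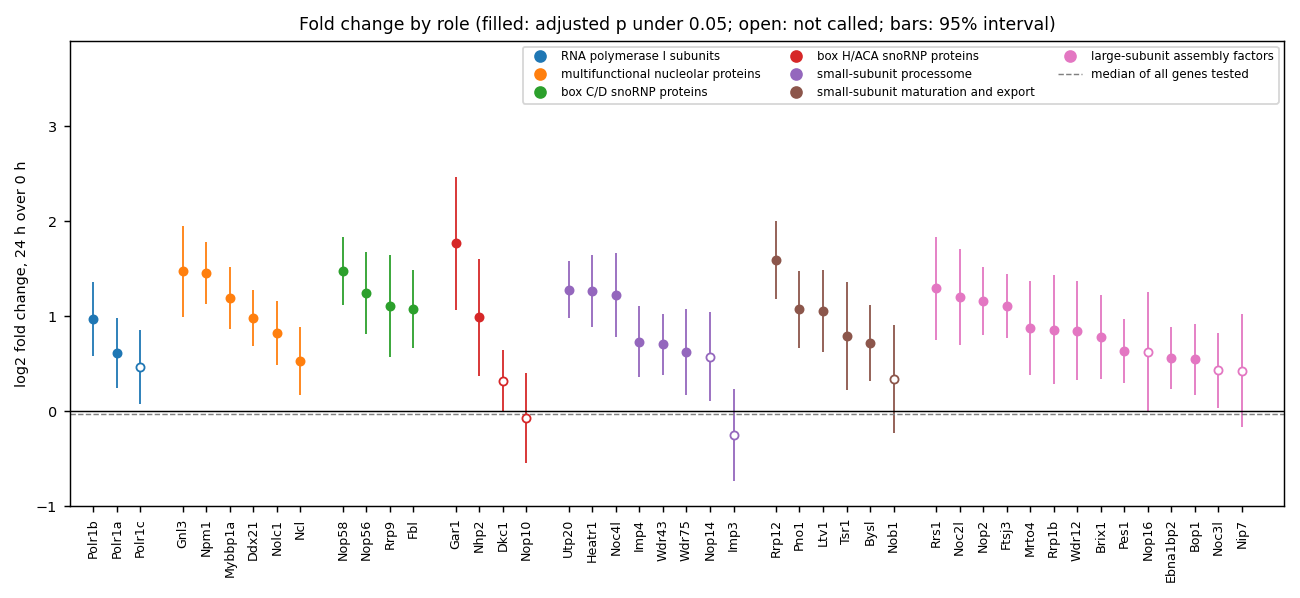
Each point is the log2 fold change of a member, 24 h over 0 h, with its 95% interval, coloured by role and sorted within it. Filled points passed an adjusted p of 0.05 and open points did not, and the dashed line is the median of all genes tested. All box C/D and multifunctional nucleolar genes are filled, while the box H/ACA genes run from 1.77 for Gar1 to -0.07 for Nop10.

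The small-subunit processome is the particle that folds and cuts the 5′ part of the precursor, and 6 of its 8 members measured here rose. Utp20, a large scaffold protein (chromosome 10, 88746607 to 88826814), had 90.5, 76.9 and 82.8 CPM at 24 h and 31.5, 34.8 and 36.8 CPM at 0 h, a log2 fold change of 1.28 ± 0.13 (SE, adjusted p = 0.000325). Heatr1, also a large scaffold and needed for rRNA transcription, had 67.7, 68.5 and 58.3 CPM at 24 h and 24.2, 24.0 and 32.8 CPM at 0 h, a 2.40-fold rise (adjusted p = 0.000963). Both sets of libraries were far apart, and Noc4l, whose yeast counterpart pairs with Nop14, also rose more than 2-fold (2.34-fold). Imp4 rose 1.66-fold, Wdr43 1.63-fold and Wdr75 1.54-fold. Wdr75 was close to the threshold (adjusted p = 0.0457) and was called in 1 of the 6 fits that left out a library, the one without the third 24 h library, with adjusted p from 0.0894 to 0.128 in the others, and it was not called by limma-voom (adjusted p = 0.0615).

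Nop14 had 25.6, 38.2 and 28.1 CPM at 24 h and 17.2, 22.6 and 22 CPM at 0 h, without overlap, and was not called (1.49-fold, interval 1.08 to 2.06, adjusted p = 0.0678). It was called higher in 2 of the 16 alternatives, with adjusted p down to 0.0364. Imp3, which binds the U3 snoRNA with Imp4, had 15.2, 16.1 and 11.4 CPM at 24 h and 19.7, 15.5 and 15.6 CPM at 0 h. Its groups overlapped and its fold was 0.840, with an interval of 0.599 to 1.18 (adjusted p = 0.426). Imp3 and Nop10 were the members whose fold change lay below 1. That of Nop10 lay above 1 when scaled by library totals only, without the second 24 h library and without the first 0 h library.

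Among the factors of late small-subunit maturation and export, 5 of 6 rose. Rrp12, an export factor of both subunits (chromosome 19, 41862851 to 41896153), had 49.7, 37.6 and 36.4 CPM at 24 h and 12.6, 13.6 and 14.9 CPM at 0 h. The groups were widely separated, with a log2 fold change of 1.59 ± 0.18 (SE), or 3.01-fold (adjusted p = 0.000504). Pno1, which in yeast binds near the 3′ end of the pre-18S rRNA, had 35.6, 36.5 and 33.0 CPM at 24 h and 18.0, 13.3 and 18.7 CPM at 0 h, a 2.1-fold rise (adjusted p = 0.00291). Ltv1, another pre-small-subunit factor, rose 2.07-fold, the GTPase-like Tsr1 1.73-fold and Bysl 1.64-fold. Tsr1 (adjusted p = 0.0447) lost its call on leaving out the first or the second library of either time (adjusted p from 0.0837 to 0.141), and Bysl on leaving out the second 0 h library (adjusted p = 0.0628). Nob1, the nuclease that makes the final cut of 18S rRNA, had 11.9, 15.6 and 11.1 CPM at 24 h and 8.42, 9.62 and 12.6 CPM at 0 h. Its groups overlapped, and it was not called (1.26-fold, interval 0.852 to 1.88, adjusted p = 0.357).

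Of the 14 large-subunit assembly factors, 11 rose. Ftsj3, an rRNA methyltransferase (chromosome 11, 106249144 to 106255802), had 80.7, 88.3 and 79.2 CPM at 24 h and 32.3, 39.4 and 43.7 CPM at 0 h, a 2.15-fold rise (adjusted p = 0.00103). Nop2, which methylates a cytosine of 28S rRNA (chromosome 6, 125131883 to 125144753), had 51.3, 55.0 and 40.8 CPM at 24 h and 22.6, 20.9 and 22.3 CPM at 0 h, a 2.23-fold rise (adjusted p = 0.00116). Neither gene's groups overlapped. Rrs1, which in yeast brings the 5S particle to the precursor, rose 2.45-fold (adjusted p = 0.00465) and Noc2l, an assembly factor and histone acetylation inhibitor, 2.30-fold (adjusted p = 0.00457).

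The 3 partners of the PeBoW complex, which acts in the processing of the large-subunit rRNAs, all rose by less than 2-fold. Wdr12 rose 1.8-fold (adjusted p = 0.0241), Pes1 1.55-fold (adjusted p = 0.0142) and Bop1 1.46-fold (adjusted p = 0.037). Pes1 kept its call in every fit that left out a library. Wdr12 and Bop1 each lost it on leaving out the first or the second 24 h library, or the second or the third 0 h library, with adjusted p from 0.0577 to 0.0804 for Wdr12 and from 0.0774 to 0.120 for Bop1. Mrto4, a relative of the ribosomal stalk protein that occupies its place during assembly, rose 1.84-fold, Rrp1b 1.81-fold, the assembly factor gene Brix1 1.72-fold and Ebna1bp2, a partner of pre-large-subunit particles, 1.47-fold. Their calls were lost in 1 or more of the fits that left out a library, with adjusted p up to 0.0515 for Mrto4, 0.105 for Rrp1b, 0.0646 for Brix1 and 0.0685 for Ebna1bp2. For Mrto4 this was the second 24 h library. For Rrp1b it was the first or the second 24 h library, or the first or the third 0 h library. For Brix1 it was the second 24 h library, or the second or the third 0 h library, and for Ebna1bp2 the first 24 h library, or the second or the third 0 h library.

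Noc3l, Nop16 and Nip7 were the large-subunit factors that were not called. Noc3l, a partner of Noc2l, had 24.0, 24.0 and 25.9 CPM at 24 h and 15.5, 20.3 and 19.0 CPM at 0 h (1.35-fold, interval 1.03 to 1.77, adjusted p = 0.0973). Nop16 had 17.3, 28.6 and 14.7 CPM at 24 h and 11, 15.1 and 13.2 CPM at 0 h (1.54-fold, interval 0.993 to 2.39, adjusted p = 0.131). Noc3l's groups stood apart, while those of Nop16 overlapped, and the second 24 h library was the high one. Nop16 was called higher in 1 of the 16 alternatives, with a photoreceptor covariate added after seeing the data (adjusted p = 0.0439). Nip7 had 17.5, 37.2 and 27.2 CPM at 24 h and 19.9, 18.5 and 22.6 CPM at 0 h (1.34-fold, interval 0.888 to 2.03, adjusted p = 0.266), and its 24 h libraries spanned the 0 h range. Without the first 24 h library, the low one, Nip7 was called higher (adjusted p = 0.0468).

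Several members share ground with neighbours. In the deposited spans Bop1 overlaps Mroh1, which had 1898 reads summed over the 24 h libraries and 1340 over the 0 h libraries, and Scx, which had 59 at 24 h and 196 at 0 h. Neighbours with more reads at 24 h were also Mpp1 beside Dkc1 (531 at 24 h, 305 at 0 h), Samd11 beside Noc2l (954 at 24 h, 824 at 0 h) and Rmnd5b beside Nhp2 (445 at 24 h, 437 at 0 h). Neighbours with fewer were Srr beside Tsr1 (766 at 24 h, 1512 at 0 h), Ccnd3 beside Bysl (1719 at 24 h, 2649 at 0 h), Carf beside Wdr12 (279 at 24 h, 528 at 0 h), Glt8d1 beside Gnl3 (1157 at 24 h, 1566 at 0 h), Idh3b beside Nop56 (1953 at 24 h, 2011 at 0 h) and D4Ertd617e beside Ebna1bp2 (2 at 24 h, 7 at 0 h). The sources used here do not say whether counting used the strand, and the part of shared reads in these members' values was not tested.

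Beyond the members, 122 other genes of the pathway were listed by role, and all 122 passed the low-count filter. Of these 49 rose and 1 fell (40.2% higher, beside 15.2% of all genes), with a median log2 fold change of 0.52. The count was 26 without the second 0 h library, 31 without the third 0 h library, 32 without the second 24 h library and 7 against a 1.5-fold change. The processome list was called most often, with 20 of 32 higher and 1 lower. Wdr46, a processome scaffold, rose 2.44-fold (adjusted p = 0.00176) and the helicase gene Ddx10 1.87-fold (adjusted p = 0.00391). The lower gene was Abt1, a nucleolar factor that averaged 18.7 ± 1.56 CPM at 24 h, against 29.3 ± 4.35 CPM at 0 h (adjusted p = 0.0257). Abt1 was called in 1 of the 6 fits that left out a library, the one without the first 0 h library.

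Large-subunit factors outside the members rose in 19 of 42. Eif6, which keeps the large subunit from joining the small one too early, averaged 64.7 ± 14.0 CPM at 24 h, against 25 ± 5.41 CPM at 0 h, a 2.58-fold rise (adjusted p = 0.0022), and the helicase gene Ddx27 rose 1.91-fold. Late small-subunit factors rose in 3 of 12, among them the kinase gene Riok3 (1.95-fold) and Nol10 (2.21-fold). Exosome and trimming genes rose in 4 of 15, with the nuclease genes Exosc10 at 1.54-fold and Dis3 at 1.78-fold. Genes of snoRNP assembly rose in 2 of 9, Naf1 at 1.68-fold and Ruvbl2 at 1.58-fold.

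Transcription factors and the remaining subunits of RNA polymerase I were called least, with 1 of 12 higher. That gene was Polr1e, a subunit that acts in initiation, averaging 13.3 ± 1.22 CPM at 24 h, against 6.11 ± 1.01 CPM at 0 h (2.2-fold, adjusted p = 0.00942). Rrn3, which links the polymerase to its promoter, averaged 70.9 ± 7.35 CPM at 24 h, against 53.2 ± 5.86 CPM at 0 h, short of the threshold (adjusted p = 0.057).

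Ribosomal proteins are the parts that these factors assemble with rRNA. Of 76 cytosolic ribosomal protein genes, 72 were tested, and 0 rose and 0 fell, with a median log2 fold change of 0.16. At an unadjusted p under 0.05, 6 were higher and 1 lower. DESeq2 called 1 higher and 0 lower and limma-voom 0 in either direction, while edgeR called 15 higher on leaving out the first 0 h library. Of 77 mitochondrial ribosomal protein genes 8 rose (10.4%, beside 15.2% of all genes) and 0 fell, with a median of 0.21. On leaving out the second or the third library of either time, 3 to 5 rose. At an unadjusted p under 0.05, 16 were higher and 0 lower, beside 2882 higher and 2689 lower of all 13956 genes tested. DESeq2 and limma-voom each called 0 of the mitochondrial genes lower. Differences between these lists and the members were not tested. Of 9 listed snoRNA host genes (Gas5 and Snhg genes) 0 were called in either direction by edgeR, DESeq2 or limma-voom, and 0 had an unadjusted p under 0.05 in edgeR. Among them Gas5 had 91.8, 79.1 and 42.3 CPM at 24 h and 72.1, 73.7 and 78.1 CPM at 0 h. The members Ncl, Nop56, Nop58, Gnl3, Wdr43 and Tsr1, whose spans hold snoRNA genes, were not on this list, and each was called higher.

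**Figure D4:**
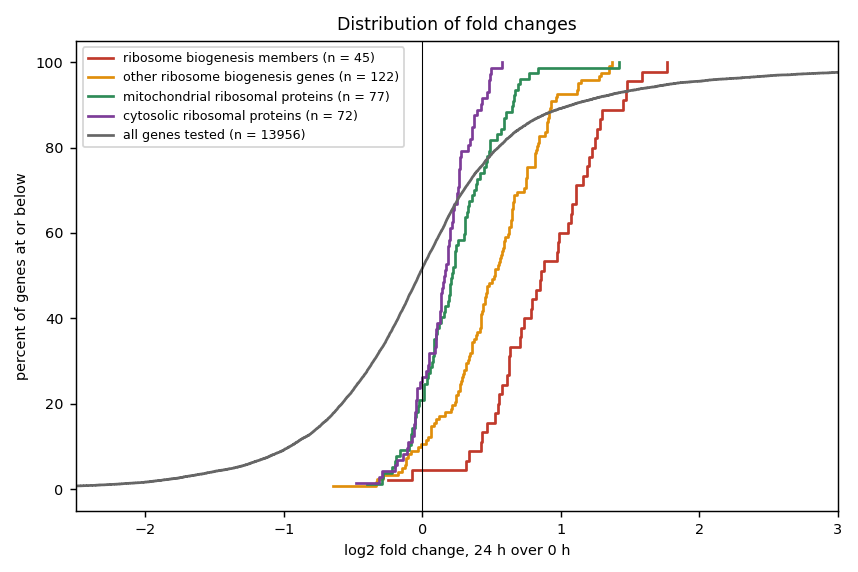
Cumulative percent of genes at or below each log2 fold change (24 h over 0 h) for the members, the other genes of the pathway, mitochondrial and cytosolic ribosomal protein genes, and all genes tested. At its middle, a median of 0.86, the curve of the members lies right of the others, and that of the cytosolic ribosomal proteins crosses its middle at 0.16. The curve of all genes tested runs past the members' largest value of 1.77, and the axis leaves out genes beyond -2.5 and 3.

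Rn45s, the gene line of the 45S ribosomal RNA precursor, varied widely between the 24 h libraries. The counts do not say whether reads on this line came from the precursor or from mature rRNA, and this was not tested. It held 15.4%, 5.04% and 5.0% of gene counts in the 24 h libraries and 2.44%, 3.45% and 2.62% in the 0 h libraries. All 24 h shares were above all 0 h shares (exact two-sided permutation test, p = 0.1, the smallest possible here), and edgeR's log2 fold change was 1.55 ± 0.52 (SE, adjusted p = 0.0553). Without the first 24 h library, which stood far above the rest, the log2 fold change was 0.75 (adjusted p = 0.219).

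The 24 h libraries differed in the level of the members by less than the times did. Summed over the 45 members, TMM-scaled CPM were 2945, 2904 and 2519 at 24 h and 1565, 1470 and 1522 at 0 h. The third 24 h library was the lowest of its group in 33 members, and the second was the highest in 23. Markers of other cells and of proliferation moved between the libraries as well. Of 9 neutrophil markers found, 6 were tested and all 6 rose, and their summed level was 95.9 to 183 CPM at 24 h and 5.81 to 16.4 CPM at 0 h, with the granule protease gene Elane at 0 in all libraries. Their sum was highest in the third 24 h library, as were those of the lens epithelium, lens fiber, proliferation, macrophage and fibroblast markers. That of the photoreceptor markers was highest in the second, and those of the retinal pigment and endothelial markers in the first. The sum of the members was lowest in the third. Of 10 proliferation genes 6 rose, all of them DNA replication genes, with sums of 248 to 540 CPM at 24 h and 115 to 213 CPM at 0 h, while Mki67 was not called (adjusted p = 0.412).

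Macrophage markers, of which 1 of 10 rose and 2 fell, summed to 76.5 to 164 CPM at 24 h and 66.1 to 167 CPM at 0 h. Photoreceptor markers, of which 0 of 8 were called, summed to 1052 to 4733 CPM at 24 h and 1931 to 5976 CPM at 0 h, and by edgeR 0 had an unadjusted p under 0.05. With the summed photoreceptor level as a covariate, added after seeing the data, 37 members were called higher. All 6 T and B cell markers were too low to be tested, with Cd3g at 0 throughout. Retinal pigment and ciliary epithelium markers, of which 2 of 7 rose and 3 fell, summed to 113 to 1146 CPM at 24 h and 181 to 332 CPM at 0 h. Fibroblast and keratocyte markers, of which 2 of 4 tested rose and 1 fell, summed to 99.6 to 357 CPM at 24 h and 270 to 361 CPM at 0 h, with Kera at 0. Of 5 endothelial markers 2 rose, and they summed to 21.5 to 44.9 CPM at 24 h and 13.2 to 38.2 CPM at 0 h. The part of these other cells and of proliferating cells in the members' levels was not tested.

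**Figure D5:**
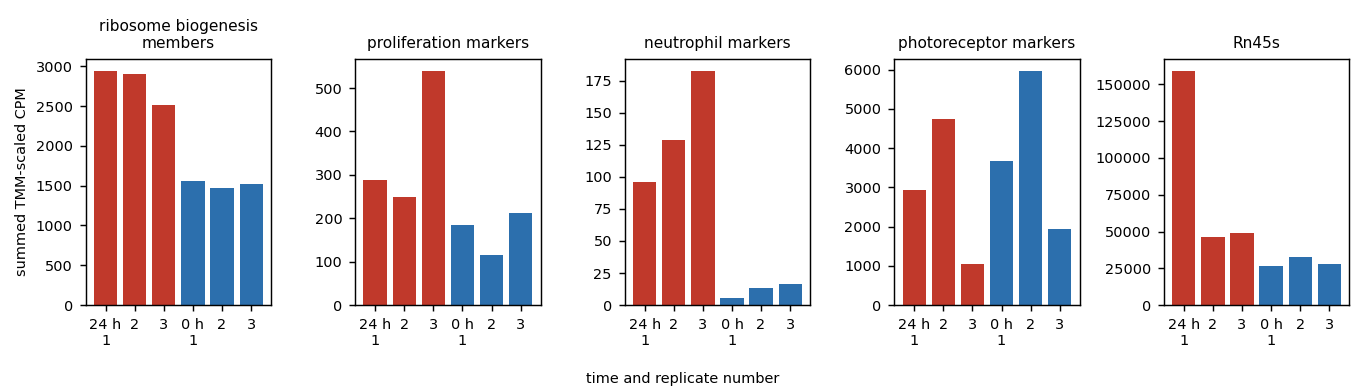
Bars give the summed TMM-scaled CPM of each list, and of Rn45s alone, in the 24 h libraries (red, replicates 1 to 3) and the 0 h libraries (blue). The members are at 2519 to 2945 in all 24 h libraries and at 1470 to 1565 in all 0 h libraries, while the panels of proliferation, neutrophil and photoreceptor markers and of Rn45s differ more between libraries of the same time.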

How the data were processed

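RNA was isolated on RNeasy columns, per the labels' protocols, which name both a stranded TruSeq kit and another for the libraries. The submitters' processing notes name the mm10 build, Trim Galore 0.4.4, HTSeq 0.6.1p1, TopHat2 2.1.0 and edgeR 3.16.5. The values used are the deposited counts, whole reads per gene per the file headers, with coordinates that are printed as deposited. The deposited RPKM values equal count over length and library total and were not used. Genes were filtered with filterByExpr, leaving 13956 of 24147, and scaled by TMM. The main test, 24 h over 0 h, was the two-sided quasi-likelihood test of edgeR 4.0.16 in R 4.3.3 without covariates, with Benjamini-Hochberg adjustment over all genes tested. Every adjusted p comes from this fit unless another is named. A gene was called at an adjusted p under 0.05. CPM are TMM-scaled, SE are approximate (fold change over the square root of F), and intervals are 95% and rest on the spread between libraries. Precision is limited by 3 libraries per time. On library totals without TMM scaling, 3 counts correspond to 0.324 to 0.372 CPM at 24 h and 0.276 to 0.343 CPM at 0 h, counting error only.

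The members and lists were chosen with earlier results of these data known, and so are no independent evidence of direction. Values in every library are given for the 2 lowest p of each role among the members, for Npm1, Ncl and Fbl, for all members not called, and for the largest and smallest changes; outside the members, for Myc, Mycn and Rn45s, with means or folds for the 2 lowest p of each pathway list and its lower genes. Of 224 listed genes 223 were found. Promoters are RefSeq sequences of GRCm38.p6. Alternatives were other scalings (RLE, upper quartile, library totals), no low-count filter, DESeq2 1.42.0, limma-voom (limma 3.58.1), a 1.5-fold test, Rn45s and crystallins left out, a replicate block, each library left out, and, added after seeing the data, a photoreceptor covariate. The fit was tested on simulated data.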

Additional observations from a re-analysis of the deposited data

How the results depend on the processing

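Over 16 alternatives, 18 members were called higher in all of them and 5 (Dkc1, Nop10, Nob1, Imp3 and Noc3l) in none. Members called higher numbered 26 to 34 when a library was left out and 35 to 37 under the other alternatives, except 18 against a 1.5-fold change, and 0 members were lower throughout. Against a 1.5-fold change, all genes higher numbered 1060, all genes lower 629, other pathway genes 7 higher and 0 lower, and mitochondrial ribosomal protein genes 1 higher. Leaving out a library gave 1041 to 1648 lower genes, 26 to 46 other pathway genes higher and 0 to 1 lower, 0 to 15 cytosolic ribosomal protein genes higher and 0 to 1 lower, and 3 to 7 mitochondrial ones higher. With library totals only, 0 other pathway genes were lower and 3 cytosolic ribosomal protein genes higher; by DESeq2 1 was higher. The sign of Nop10 changed to log2 values of 0.0094 with library totals only, 0.0081 without 24 h replicate 2 and 0.054 without 0 h replicate 1, within a range of -0.19 to 0.054 over the fits that left out a library. Rn45s was called higher with library totals only (log2 1.58), without a filter (1.55), with the photoreceptor covariate (1.65) and by DESeq2 (1.55), and was 0.75 to 1.85 with a library left out.

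Nothing in the labels says that same-numbered libraries belong together, and the correlations of their deviations were 0.0866, 0.215 and 0.397 for replicates 1 to 3, so the numbers were not used as pairs. Pairing was not settled by this: every library but 24 h replicate 1, which correlated best with 0 h replicate 2 (0.172), correlated best with its own number. The summed photoreceptor markers also took the same order by number at both times (2929, 4733 and 1052 CPM at 24 h, against 3661, 5976 and 1931 CPM at 0 h), being lower at 24 h in each same-numbered pair. With a replicate block 37 members, 52 other pathway genes and 0 cytosolic ribosomal protein genes were higher, Rn45s was called (log2 1.28) and so was Nop14 (adjusted p = 0.0364), which was also called with the photoreceptor covariate (adjusted p = 0.048).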
